A study of Bos taurus with 92 samples.

Results

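This account concerns the genes of the cell cycle and of DNA replication in single bovine blastocysts and in the somatic cells used for cloning. The members were found by gene symbol: those beginning like the CDC, CDK, CDKN, CCNA to CCNL, MCM, ORC, RFC, BUB, MAD, ANAPC, AURK, PLK, CENP and POLA, POLD or POLE genes, and PCNA, with 7 CDC42 genes left out. This gave 60 genes on 70 of the 8208 probes of the array, out of 4452 genes named by a single symbol. All 60 passed the filter on missing values, as did 4398 of the 4452 genes. The embryos were 15 made by nuclear transfer (NT, in which the nucleus of a somatic donor cell is placed in an oocyte), 15 made by fertilisation in vitro (IVF) and 14 obtained by artificial insemination (AI). They were set beside 2 samples of donor cells, labelled 8 and 9. The labels of 8 NT embryos carry 2_, those of 7 carry 3_ and those of 3 AI embryos carry H, all unexplained. The sources used here give no breed, sex, age, culture medium or day of collection, and do not say whether embryos shared parents or cell cultures.

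Entry into S phase is driven by cyclin E and cyclin-dependent kinase (CDK) activity, which CDK inhibitors such as p21 restrain. Replication origins are licensed by the origin recognition complex and the MCM helicase, and forks then run with the PCNA clamp, its RFC loader and the polymerases. Mitosis is timed by Aurora and Polo kinases, by the spindle checkpoint and by the anaphase-promoting complex (APC/C), an E3 ubiquitin ligase switched on by CDC20. Early cleavage divisions have short gap phases, whereas cultured somatic cells can spend much of their cycle in G1. The sample titles and source names do not give the growth or cycle state of the donor cells. The symbol rule also took in genes that only share a name with this pathway, such as CDC40 and CDC5L of the splicing machinery. No sequences are given, because none were held for these probes.

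Every sample was set against a common reference RNA on 2 arrays that differed in which of the RNAs carried Cy5 and which Cy3. A level is the log2 ratio of a sample to the reference after centring each array on its median, averaged over the 2 arrays. A difference is the log2 level of the first group minus that of the second, given ± the standard error (SE) of a linear model (limma) over all 46 samples. A gene was called when its Benjamini-Hochberg adjusted p over 4398 genes was 0.05 or less. The 2 arrays of a sample had opposite signs (r from -0.743 to -0.301), which a dye swap gives for either direction of the ratio. That the ratio is Cy5 over Cy3 is likely, not certain, and rests on markers alone. With this direction, the trophectoderm keratin KRT8 was higher in NT embryos than in donor cells by 5.42 and the fibroblast collagen COL3A1 was lower by a difference of -6.13. Of 13 trophectoderm markers tested, 9, 10 and 9 were higher in NT, IVF and AI embryos than in donor cells, and TFAP2A was lower in each kind. Of 10 fibroblast markers, 6, 7 and 6 were lower in NT, IVF and AI embryos, and 1, 0 and 1 were higher. Of all genes, 15.4%, 15.8% and 16.6% were lower and 20.1%, 18.5% and 20.4% were higher. The fibroblast list had a median difference of -2.43, -2.74 and -2.89 in NT, IVF and AI embryos. Once turned to the same sign, paired arrays had an r of 0.565 to 0.743 in embryos, against 0.301 and 0.354 in donor cells. Neither of 2 blood markers was called. Of 3 inner cell mass and primitive endoderm markers, 0 were higher and 1 was lower in each kind of embryo than in donor cells. Of 2 cumulus and granulosa markers, 0 were higher and 1 was lower in each kind. The part these differences in cell type have in the results below was not tested. In whole embryos, fewer cells that express a gene and less of its RNA per cell cannot be told apart.

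The embryos of all 3 kinds had far more transcript of the helicase genes MCM2, MCM4 and MCM7, of CDC20 and of cyclin E1 than the donor cells. They had more of Aurora B, and less of the CDK inhibitor CDKN1A. In NT embryos 24 of 60 members (40.0%) were higher than in donor cells and 4 (6.67%) were lower, whereas of all 4398 genes 20.1% were higher and 15.4% were lower. IVF embryos likewise had 24 members higher and 4 lower, beside 18.5% and 15.8% of all genes. AI embryos also had 24 higher and 4 lower, beside 20.4% and 16.6% of all genes. The median difference of the 60 members was 0.39, 0.46 and 0.44 in NT, IVF and AI embryos, while that of all genes was 0.04, 0.03 and 0.0022. In all, 21 members were higher than donor cells in every kind of embryo, and 4 were lower in every kind. The share of all genes called in every kind was not counted. The 3 comparisons share the same 2 donor cell samples and are therefore not independent of each other.

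All 4 genes of origin licensing and the helicase were higher in each kind of embryo. MCM4, a subunit of the MCM2 to MCM7 helicase, had levels of -1.47 to -0.26 (median -0.54) in NT, -1.10 to 0.11 (-0.38) in IVF and -0.95 to 0.17 (-0.65) in AI embryos. The 2 donor cell samples were at -4.16 and -4.13, more than 2 log2 units below the lowest embryo. The differences were 3.46 ± 0.28, 3.77 ± 0.28 and 3.68 ± 0.28 for NT, IVF and AI embryos (adjusted p = 1.66e-14, 9.25e-16 and 2.1e-15), or 11.0-fold, 13.7-fold and 12.8-fold. MCM2 had levels of -0.73 to 0.98 (median 0.41) in NT, -0.77 to 1.29 (0.74) in IVF and 0.23 to 1.10 (0.62) in AI embryos, against -2.15 and -3.05 in donor cells. Its differences were 2.82 ± 0.39, 3.09 ± 0.39 and 3.24 ± 0.39, with adjusted p from 2.97e-09 to 7.84e-08. The AI embryos lay closest together for MCM2, with an SD of 0.29, while NT and IVF embryos had SDs of 0.51 and 0.69.

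MCM7 had levels of -0.39 to 0.90 (median 0.20) in NT, -0.40 to 0.47 (-0.06) in IVF and -0.85 to 0.70 (0.30) in AI embryos, against -1.60 and -2.46 in donor cells. No embryo overlapped the donor cells, and the differences were 2.31 ± 0.26, 2.04 ± 0.26 and 2.25 ± 0.26. ORC6, the smallest subunit of the origin recognition complex, differed less, by 1.10 ± 0.32 in NT, 1.01 ± 0.32 in IVF and 1.39 ± 0.32 in AI embryos (adjusted p = 0.00546, 0.0119 and 0.000502). Its donor cell samples, at -1.51 and -0.57, overlapped with NT and IVF embryos but not with AI embryos. Without donor cell sample 8 no ORC6 call was left, with differences of 0.63, 0.54 and 0.92 in NT, IVF and AI embryos and adjusted p from 0.122 to 0.441. The calls of MCM2, MCM4 and MCM7 stood with either donor sample left out.

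Of the 6 genes of the clamp, its loader and the polymerases, 3 were higher in NT, 4 in IVF and 3 in AI embryos than in donor cells. Of all genes, 20.1%, 18.5% and 20.4% were higher. PCNA, the sliding clamp, had levels of -0.54 to 0.66 (median -0.14) in NT, -1.74 to 0.32 (-0.16) in IVF and -0.98 to 0.45 (-0.21) in AI embryos. The donor cell samples, at -1.40 and -2.15, lay below all NT and AI embryos and below 14 of 15 IVF embryos. The differences in PCNA were 1.63 ± 0.31, 1.45 ± 0.31 and 1.58 ± 0.31 (adjusted p = 2.94e-05, 0.000172 and 4.64e-05). POLA2, the regulatory subunit of the polymerase alpha-primase that starts each DNA strand, was higher by 1.47 ± 0.40, 1.22 ± 0.40 and 1.45 ± 0.40. RFC2, a subunit of the clamp loader, was higher by 1.33 ± 0.31, 1.00 ± 0.31 and 1.06 ± 0.32. RFC5, another loader subunit, was called in IVF embryos with a difference of 1.01 ± 0.30 (adjusted p = 0.00639), and had differences of 0.70 in NT and 0.60 in AI embryos. POLD4 and POLE3, accessory subunits of polymerases delta and epsilon, were not called, with differences from -0.41 to -0.01.

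Several of these calls leaned on donor cell sample 9. Without it, POLA2 differed by 1.21, 0.97 and 1.20 in NT, IVF and AI embryos with adjusted p of 0.110, 0.229 and 0.113. RFC2 kept its call in NT embryos (adjusted p = 0.0383 without sample 9) and lost it in IVF (0.155) and AI embryos (0.117), and in IVF embryos also without sample 8 (0.0568). PCNA then missed the threshold in IVF embryos (1.08, adjusted p = 0.0579), as did RFC5 (0.91, adjusted p = 0.112).

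**Figure D1:**
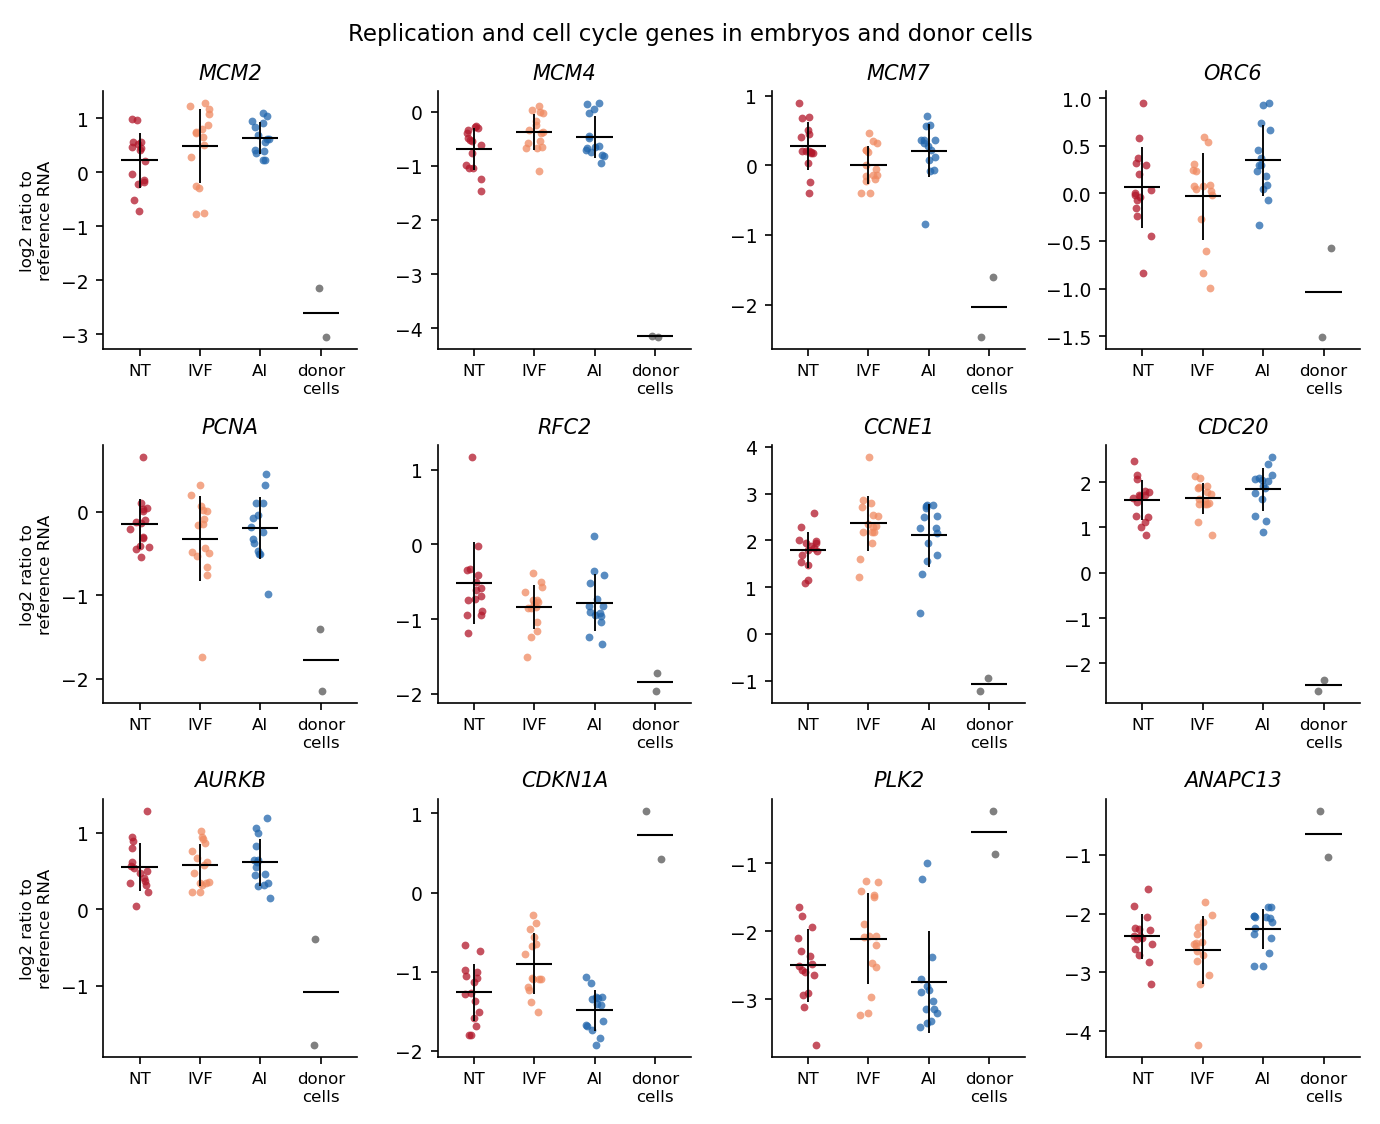
Levels of 12 members (log2 ratio to the reference RNA, vertical axes, 1 scale per gene) in NT, IVF and AI embryos and donor cells; points are samples, horizontal bars are group means and vertical bars are the SD where a group has more than 2 samples. For MCM4, CDC20 and CCNE1 all embryos lie above both donor cell samples, and for CDKN1A, PLK2 and ANAPC13 all embryos lie below them.

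Among the 15 cyclins and CDKs, 4 were higher in NT, 4 in IVF and 5 in AI embryos, and 1 was lower in each kind. The counts higher are not far from the shares of all genes, 20.1%, 18.5% and 20.4%. Of all genes, 15.4%, 15.8% and 16.6% were lower. CCNE1, cyclin E1, which drives the G1 to S transition with CDK2, had levels of 1.08 to 2.59 (median 1.83) in NT, 1.21 to 3.79 (2.32) in IVF and 0.44 to 2.75 (2.27) in AI embryos. The donor cells stood at -1.22 and -0.93, below every embryo. The differences were 2.88 ± 0.41, 3.44 ± 0.41 and 3.18 ± 0.41 (adjusted p from 1.91e-09 to 1.31e-07), or 7.34-fold, 10.9-fold and 9.09-fold. CDK7, the CDK-activating kinase of the TFIIH complex, was at 1.32 to 3.03 (median 2.04) in NT, 1.32 to 2.88 (2.08) in IVF and 0.99 to 2.62 (1.76) in AI embryos, against 0.15 and -0.67 in donor cells. It was higher by 2.36 ± 0.36, 2.31 ± 0.36 and 2.05 ± 0.36, with no overlap of embryos and donor cells. CDK9, the kinase of the transcription elongation factor P-TEFb, was higher by 1.60 ± 0.25, 1.64 ± 0.25 and 1.20 ± 0.25. CDK20 was higher by 0.92 ± 0.24, 1.20 ± 0.24 and 0.92 ± 0.24. Without donor cell sample 9, CDK9 in AI embryos fell short of the threshold (0.72, adjusted p = 0.104).

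CDK2, the catalytic partner of cyclin E, was not called, with differences of 0.75, 0.39 and 0.67 and adjusted p from 0.0974 to 0.430. One of its 2 probes alone was called in NT embryos against donor cells, with a difference of 1.12, and the other had 0.37. CDK4 and CDK6, the kinases of the D cyclins, were not called either, with differences from -0.99 to 0.18. CCND3, cyclin D3, was called in AI embryos (1.25 ± 0.42, adjusted p = 0.0166), with differences of 0.74 in NT and 0.87 in IVF embryos, and was not called with donor cell sample 8 or sample 9 left out (adjusted p = 0.0520 and 0.240). CCNL1, a cyclin of pre-mRNA splicing, was the one that was lower. Its levels were -0.85 to 0.24 (median -0.35) in NT, -0.63 to 1.00 (-0.16) in IVF and -1.15 to 0.30 (-0.59) in AI embryos, against 0.51 and 1.00 in donor cells. The differences were -1.11 ± 0.30, -0.84 ± 0.30 and -1.38 ± 0.30. Without sample 9 the CCNL1 call held in AI embryos (adjusted p = 0.0426) but not in NT (0.141) or IVF embryos (0.359), and without sample 8 not in IVF embryos (0.0552).

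The other 3 members lower than in donor cells were CDKN1A, PLK2 and ANAPC13. CDKN1A encodes p21, which inhibits cyclin E and cyclin A kinases and binds PCNA, and is induced by p53. Its levels were -1.80 to -0.66 (median -1.27) in NT, -1.51 to -0.28 (-1.08) in IVF and -1.93 to -1.06 (-1.41) in AI embryos, whereas donor cells stood at 0.43 and 1.03. The differences were -1.99 ± 0.26, -1.63 ± 0.26 and -2.22 ± 0.26 (adjusted p = 2.24e-08, 1.87e-06 and 1.68e-09), with every embryo below both donor samples. PLK2, a Polo-like kinase that acts in centriole duplication and in stress responses, was at -3.68 to -1.64 (median -2.51) in NT, -3.23 to -1.25 (-2.07) in IVF and -3.42 to -0.996 (-2.96) in AI embryos. Donor cells were at -0.22 and -0.86, and the differences were -1.96 ± 0.47, -1.56 ± 0.47 and -2.21 ± 0.48. Without donor cell sample 8, PLK2 was called in AI embryos (adjusted p = 0.0285) but not in NT (-1.64, adjusted p = 0.0638) or IVF embryos (-1.25, adjusted p = 0.187).

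The 8 genes of the APC/C and its activators had median differences of -0.07, -0.19 and 5.36e-05 in NT, IVF and AI embryos, with single genes far to either side. CDC20, the activator that brings substrates to the APC/C at the start of anaphase, had the largest difference of the 60 members in each kind of embryo. Its levels were 0.83 to 2.47 (median 1.69) in NT, 0.84 to 2.13 (1.63) in IVF and 0.91 to 2.56 (1.97) in AI embryos, against -2.61 and -2.37 in donor cells. The differences of 4.10 ± 0.31, 4.14 ± 0.31 and 4.34 ± 0.32 correspond to 17.1-fold, 17.6-fold and 20.2-fold (adjusted p from 5.95e-16 to 3.92e-15). ANAPC13, a small structural subunit of the same complex, went the other way. It was at -3.20 to -1.58 (median -2.38) in NT, -4.24 to -1.80 (-2.51) in IVF and -2.90 to -1.89 (-2.11) in AI embryos, against -0.25 and -1.03 in donor cells. The differences in ANAPC13 were -1.75 ± 0.34, -1.97 ± 0.34 and -1.62 ± 0.34, with no overlap. ANAPC11, the RING subunit, was called in IVF embryos (0.53 ± 0.20, adjusted p = 0.0312), with differences of 0.40 in NT and 0.42 in AI embryos, and was not called with donor cell sample 8 or 9 left out (adjusted p = 0.187 and 0.163). The other 5, ANAPC1, ANAPC5, ANAPC16, CDC23 and CDC26, were not called, with differences from -0.77 to 0.29.

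Of the mitotic kinases and checkpoint genes, AURKB, the kinase of the chromosomal passenger complex, overlapped widely among the 3 kinds of embryo. Its levels were 0.05 to 1.29 (median 0.50) in NT, 0.22 to 1.02 (0.58) in IVF and 0.15 to 1.19 (0.59) in AI embryos. Donor cells were lower, at -0.39 and -1.78. The differences were 1.64 ± 0.26, 1.66 ± 0.26 and 1.70 ± 0.26, which became 0.95, 0.97 and 1.00 without donor cell sample 9 and 2.34, 2.36 and 2.39 without sample 8. They passed the test each time. BUB3, a spindle checkpoint protein, was higher in NT (0.67 ± 0.21, adjusted p = 0.0101) and IVF embryos (0.85 ± 0.21, adjusted p = 0.00126), and had a difference of 0.35 in AI embryos (adjusted p = 0.207). Without donor cell sample 9 the BUB3 differences were 0.43 and 0.61 in NT and IVF embryos, with adjusted p of 0.326 and 0.132. PLK3 was not called, with differences from -0.11 to 0.31.

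Among the 7 genes named for the centromere, 5, 4 and 5 were higher in NT, IVF and AI embryos, and none was lower. Of all genes, 20.1%, 18.5% and 20.4% were higher and 15.4%, 15.8% and 16.6% lower. CENPJ, which despite its name acts in centriole assembly, had levels of -0.09 to 1.86 (median 0.73) in NT, -1.08 to 1.84 (1.39) in IVF and -0.90 to 1.43 (0.78) in AI embryos. Its donor cell samples were far apart, at -2.61 and -0.85. The differences were 2.63 ± 0.52, 2.88 ± 0.52 and 2.35 ± 0.52, and without donor cell sample 8 they were 1.75, 2.00 and 1.47, with adjusted p of 0.0608, 0.0298 and 0.117. CENPH and CENPT, of the inner kinetochore, were higher by 0.94 to 1.00 and by 1.13 to 1.37. CENPA, the histone H3 variant that marks centromeres, was higher by 0.54 ± 0.20, 0.56 ± 0.20 and 0.70 ± 0.20. CENPS was called in NT and AI embryos, by 0.69 ± 0.23 and 0.66 ± 0.24, and had a difference of 0.35 in IVF embryos. CENPB and CENPV were not called, with differences from 0.13 to 0.75.

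Most of these smaller centromere calls needed both donor samples. Without donor cell sample 9, CENPA, CENPH, CENPS and CENPT had adjusted p from 0.0520 to 0.353 in the embryos where they were called. Without sample 8 the CENPT calls and those of CENPA in NT and IVF embryos were lost too, with adjusted p from 0.117 to 0.332. From the arrays with the sample in Cy5 alone, CENPA had differences of -0.07 in NT and -0.02 in IVF embryos, so its direction there depended on the dye. In Cy5 alone no kind of embryo passed the test for CENPT, POLA2 or RFC2, with adjusted p from 0.0716 to 0.335. CENPH and CDK20 in NT embryos and ORC6 in NT and IVF embryos then missed it too, with adjusted p from 0.0613 to 0.162. AURKAIP1 and CENPS also lost their calls in NT and AI embryos in Cy5 alone, and BUB3 in NT embryos. So did ANAPC11 and RFC5 in IVF embryos and CENPA in AI embryos. In Cy3 alone the calls of CCNL1 in NT and IVF embryos and of PLK2 and POLA2 in IVF embryos were lost. CENPT in NT and CCND3 in AI embryos were not called there either.

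Of the 15 remaining genes, matched by name and placed in none of the groups above, 5 were higher in NT, 4 in IVF and 5 in AI embryos, and none was lower. Of all genes, 20.1%, 18.5% and 20.4% were higher and 15.4%, 15.8% and 16.6% lower. CDC34, the ubiquitin-conjugating enzyme that works with SCF ligases on G1 regulators, was at 1.50 to 3.03 (median 2.17) in NT, 1.43 to 2.74 (1.85) in IVF and 1.72 to 2.75 (2.25) in AI embryos. Donor cells were at -0.88 and 0.58, below all embryos, and the differences were 2.26 ± 0.30, 2.09 ± 0.30 and 2.40 ± 0.30. They were 1.53, 1.36 and 1.67 without donor cell sample 8, and still called. CDC14B, a phosphatase, was higher by 1.80 ± 0.44, 1.54 ± 0.44 and 1.70 ± 0.44, but its donor samples were at 0.02 and -2.10. Without sample 9 the CDC14B differences were 0.74, 0.48 and 0.64, with adjusted p from 0.411 to 0.623. POLDIP3, which acts in mRNA export, was higher by 1.21 ± 0.26, 1.59 ± 0.26 and 1.12 ± 0.26, with either donor sample. In AI embryos 1 of its 2 probes was not called alone (0.64, adjusted p = 0.0715), and the other had 1.61. CDK5RAP1, a mitochondrial tRNA-modifying enzyme, was higher by 1.01 to 1.12 in the 3 kinds, and was not called without donor cell sample 8 (adjusted p from 0.222 to 0.312). AURKAIP1, a mitochondrial ribosomal protein, was called in NT (0.96 ± 0.37) and AI embryos (1.17 ± 0.37), and without sample 8 in neither (adjusted p = 0.421 and 0.243). Without sample 9 its call in NT embryos was lost (adjusted p = 0.0640).

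With each donor cell sample left out in turn, 10 members were still higher in all 3 kinds of embryo: AURKB, CCNE1, CDC20, CDC34, CDK20, CDK7, MCM2, MCM4, MCM7 and POLDIP3. ANAPC13 and CDKN1A were still lower in all 3. These counts were not taken over all genes. A single donor sample is then assumed to vary as the embryos do. The main fit also takes 1 spread for all groups, so its SEs and adjusted p against donor cells rest mainly on the embryos. The 2 donor cell samples had SDs of 1.50 for CDC14B, 0.98 for AURKB and 0.02 for MCM4. Those of NT embryos were 0.42, 0.32 and 0.38.

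**Figure D2:**
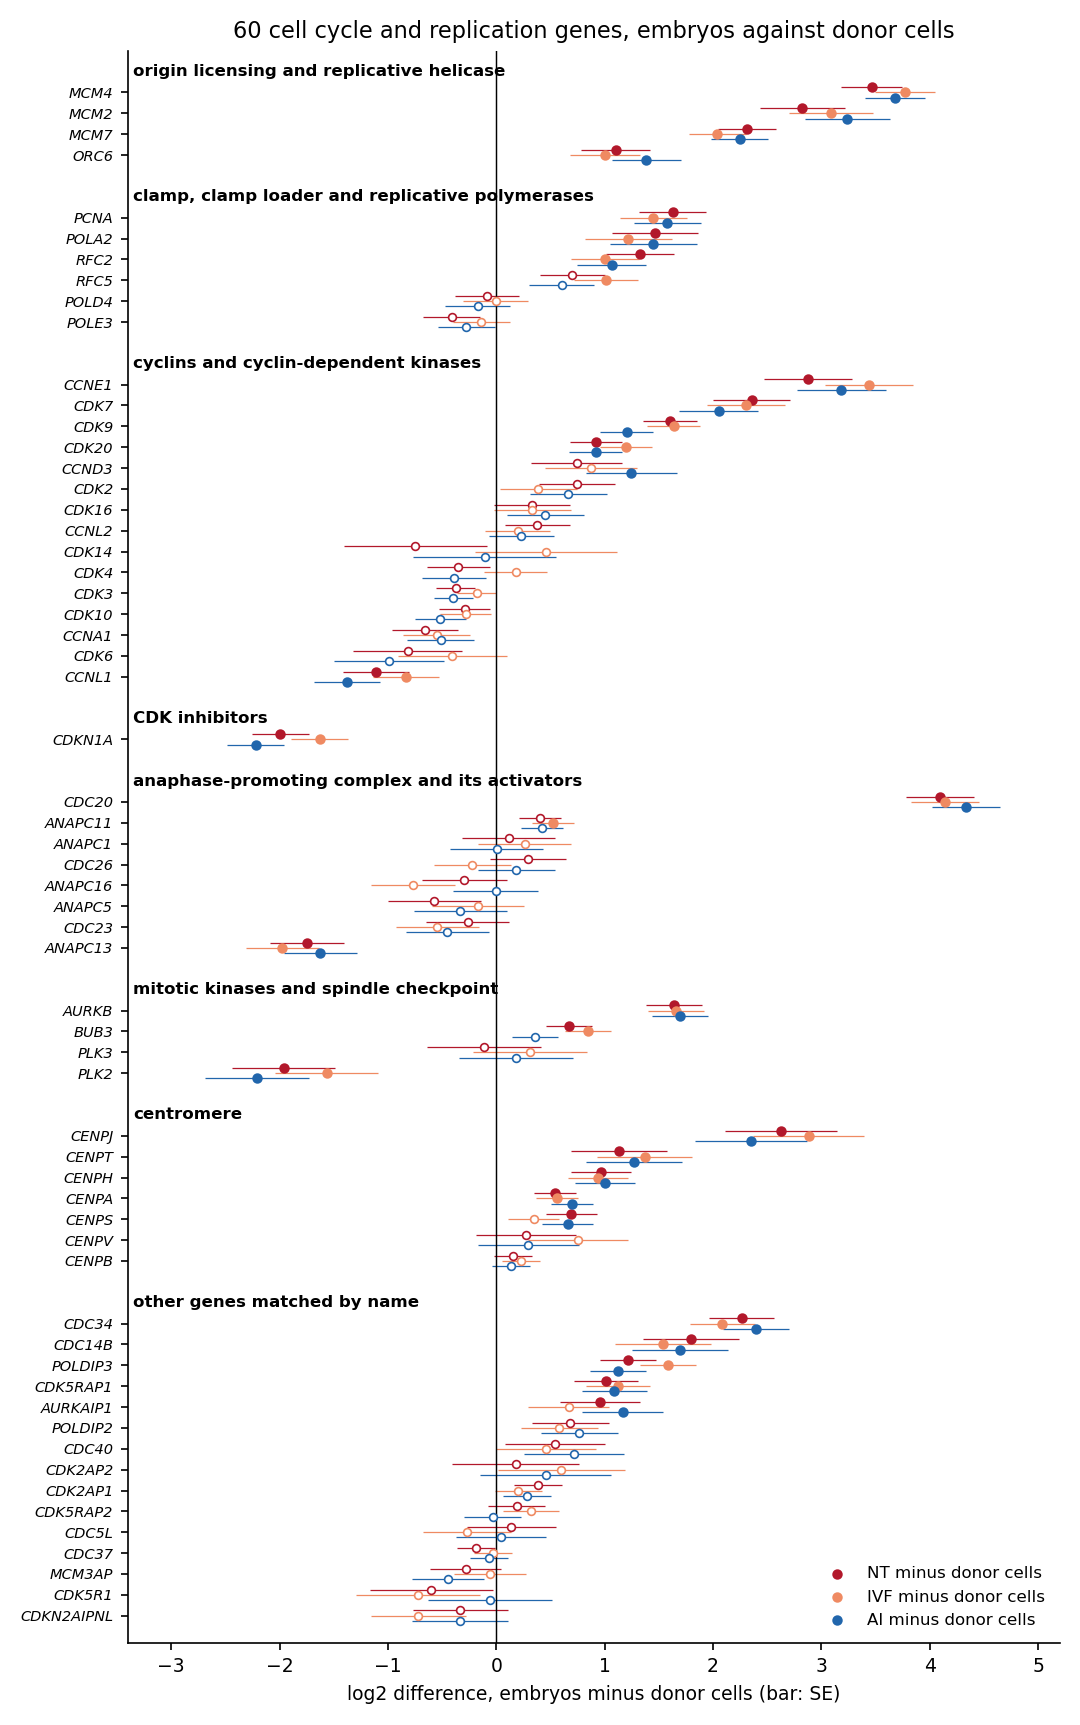
Log2 difference (horizontal axis) of each of the 60 members, NT, IVF and AI embryos minus donor cells, grouped by role; bars are the SE, filled points passed an adjusted p of 0.05 and open points did not. CDC20, MCM4, CCNE1 and MCM2 stand farthest to the right on average, at 2.82 to 4.34, and CDKN1A, PLK2 and ANAPC13 farthest to the left, at -2.22 to -1.56.

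Between the kinds of embryo the members differed much less. In IVF minus AI embryos, 9 of 60 members (15.0%) were higher and 3 (5.00%) lower, beside 13.9% and 15.6% of all genes. In NT minus IVF embryos, 2 (3.33%) were higher and 5 (8.33%) lower, beside 13.9% and 10.3%. In NT minus AI embryos, 2 were higher and none lower by limma, beside 3.80% and 4.27%; at an unadjusted p of 0.05, 2 were lower. In all, 15 members passed the test in at least 1 of these comparisons and 45 in none, a count that was not taken over all genes. None of the 4 licensing genes, all higher than in donor cells, was called: MCM2, MCM4, MCM7 and ORC6 had differences from -0.42 to 0.28 between kinds. The median member difference was 0.0092 for NT minus AI, -0.07 for NT minus IVF and 0.04 for IVF minus AI. Each comparison shares its embryos with another, and the labels name no hybridisation batch, so a batch effect and an effect of the kind of embryo cannot be told apart.

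**Figure D3:**
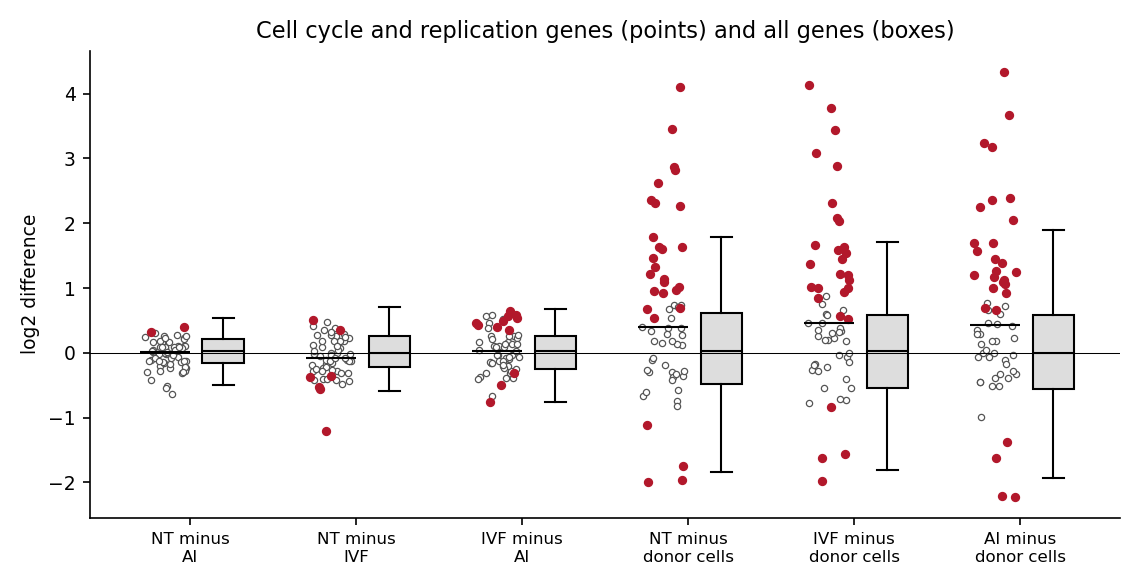
Log2 difference (vertical axis) of the 60 members (points, filled where called; short line, their median) beside all 4398 genes (boxes, quartiles with whiskers from the 5th to the 95th percentile) in 6 comparisons. Members lie within -1.21 to 0.64 between kinds of embryo and reach 4.34 against donor cells.

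CDKN1A, lower in all embryos than in donor cells, differed between kinds. With the levels given above it was higher in IVF than in AI embryos by 0.59 ± 0.13 (adjusted p = 0.000463, 14 of 15 IVF embryos above the AI mean). It was lower in NT than in IVF embryos by a difference of -0.36 ± 0.13 (adjusted p = 0.0305, 13 of 15 NT embryos below the IVF mean), which was 0.02 in the values as deposited, before centring. The NT minus AI difference was 0.22 ± 0.13 (adjusted p = 0.293). By group mean IVF embryos ranked first, followed by NT and then AI embryos, and the last step did not pass the test. The NT minus IVF call was lost in Cy5 alone (-0.29, adjusted p = 0.171) and with only the groups compared (adjusted p = 0.0507). With the NT embryos labelled 3_ alone it was lost as well (-0.23, adjusted p = 0.331).

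CDK4, the G1 kinase of the D cyclins, was likewise highest in IVF embryos. Its levels were -1.51 to -0.44 (median -1.004) in NT, -1.34 to 0.53 (-0.44) in IVF and -1.45 to -0.33 (-1.01) in AI embryos. The groups overlapped, with 13 of 15 IVF embryos above the AI mean. The difference was 0.57 ± 0.14 for IVF minus AI (adjusted p = 0.00196) and -0.53 ± 0.14 for NT minus IVF (adjusted p = 0.00397), and both of its probes were called in each. In the values as deposited the NT minus IVF difference of CDK4 was -0.15 (adjusted p = 0.586). PLK2 was higher in IVF than in AI embryos by 0.64 ± 0.23 (adjusted p = 0.0330), with 12 of 15 IVF embryos above the AI mean. The PLK2 call stood in 6 of 12 alternatives, and was lost among others with quantile normalisation (0.47, adjusted p = 0.129) and in Cy5 alone (0.51, adjusted p = 0.114). POLDIP3 was at 0.95 to 1.72 (median 1.19) in NT, 1.27 to 2.35 (1.53) in IVF and -0.03 to 1.62 (1.30) in AI embryos, and its groups overlapped. It was higher in IVF than in AI embryos by 0.46 ± 0.13 and lower in NT than in IVF embryos by a difference of -0.37 ± 0.12, which was 0.0094 in the values as deposited. One of its 2 probes carried these calls, with 0.71 for IVF minus AI where the other had 0.21. The IVF minus AI call of POLDIP3 was lost in Cy5 alone (0.29, adjusted p = 0.190). Its NT minus IVF call was lost in Cy3 alone (-0.28, adjusted p = 0.159).

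BUB3 and CDK9 were lowest in AI embryos. BUB3 was at -0.34 to 0.35 (median -0.06) in NT, -0.30 to 0.55 (0.14) in IVF and -1.02 to 0.05 (-0.31) in AI embryos. It was higher in IVF than in AI embryos by 0.50 ± 0.10 (adjusted p = 0.000275) and higher in NT than in AI embryos by 0.32 ± 0.10 (adjusted p = 0.0494), with 15 of 15 embryos of each kind above the AI mean. CDK9 was at 2.22 to 3.22 (median 2.72) in NT, 2.21 to 3.26 (2.63) in IVF and 1.82 to 2.61 (2.31) in AI embryos. It was higher in IVF than in AI embryos by 0.43 ± 0.12 (adjusted p = 0.00547) and in NT than in AI embryos by 0.40 ± 0.12 (adjusted p = 0.0319), in 13 of 15 NT embryos above the AI mean. The NT minus IVF differences of BUB3 and CDK9 were -0.18 and -0.03, which did not pass the test. In Cy3 alone the IVF minus AI call of CDK9 was lost (0.33, adjusted p = 0.0972). For NT minus AI, CDK9 was called in neither Cy5 alone (adjusted p = 0.0757) nor Cy3 alone (0.0790), and BUB3 not in Cy3 alone (0.180). The 2 NT minus AI calls were lost in several alternatives, among them the NT embryos labelled 2_ alone (8 embryos, 0.25 for BUB3 and 0.34 for CDK9) and 3_ alone (7 embryos, 0.39 and 0.48).

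The other members that were higher in IVF than in AI embryos were CCNL1, RFC5 and CDK5RAP2. CCNL1 was higher by 0.54 ± 0.15 (adjusted p = 0.00491), on both of its probes. RFC5 was at -0.75 to 0.78 (median 0.25) in IVF and -0.66 to 0.45 (-0.25) in AI embryos, a difference of 0.41 ± 0.15 (adjusted p = 0.0319). From the arrays with the sample in Cy5 alone it was 0.16 (adjusted p = 0.509), whereas Cy3 alone gave 0.65 (adjusted p = 0.000986). CDK5RAP2, which recruits microtubule nucleation to the centrosome, was at -0.15 to 0.71 (median 0.14) in IVF and -0.84 to 0.45 (-0.11) in AI embryos, a difference of 0.35 ± 0.13 (adjusted p = 0.0340). Neither of its 2 probes was called alone (0.46, adjusted p = 0.155, and 0.30, adjusted p = 0.0736), and from the arrays with the sample in Cy3 alone the difference was 0.20 (adjusted p = 0.534). In each of these, IVF and AI embryos overlapped.

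Lower in IVF than in AI embryos were ANAPC16, AURKAIP1 and CENPS. ANAPC16, an APC/C subunit, was at -2.52 to 0.14 (median -0.62) in IVF and -0.64 to 0.86 (0.16) in AI embryos, with 14 of 15 IVF embryos below the AI mean. The difference was -0.76 ± 0.19 (adjusted p = 0.00209), and 1 IVF embryo at -2.52 lay apart from the others. In Cy3 alone the difference was -0.41 (adjusted p = 0.114), against -1.12 in Cy5 alone. AURKAIP1 was at -1.22 to 1.09 (median 0.34) in IVF and 0.26 to 1.39 (0.77) in AI embryos, a difference of -0.50 ± 0.19 (adjusted p = 0.0375). That call stood in 4 of 12 alternatives, and was lost among others with quantile normalisation (-0.46, adjusted p = 0.0533), in Cy5 alone (-0.56, adjusted p = 0.0545) and in Cy3 alone (-0.43, adjusted p = 0.134). CENPS, a histone-fold protein of the kinetochore and of the Fanconi anaemia pathway, was at -1.33 to -0.11 (median -0.77) in NT, -1.61 to -0.46 (-0.94) in IVF and -1.22 to -0.19 (-0.74) in AI embryos. It was lower in IVF than in AI embryos by a difference of -0.31 ± 0.12 (adjusted p = 0.0358), and higher in NT than in IVF embryos by 0.35 ± 0.11 (adjusted p = 0.0215). Both calls were lost in Cy5 alone, with differences of -0.13 (adjusted p = 0.566) and 0.12 (adjusted p = 0.643), where Cy3 alone gave -0.50 and 0.57.

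CDK14, CCNE1 and CDC26 were called in NT against IVF embryos and in no other comparison between kinds. CDK14, a kinase that partners cyclin Y in Wnt signalling, had the largest difference between kinds among the members. Its levels were -1.98 to 1.09 (median -0.31) in NT, -1.47 to 1.91 (1.11) in IVF and -1.92 to 1.49 (0.38) in AI embryos. The difference was -1.21 ± 0.32 (adjusted p = 0.00384), with 13 of 15 NT embryos below the IVF mean. As deposited it was -0.82 (adjusted p = 0.0588). CCNE1 was lower in NT than in IVF embryos by a difference of -0.57 ± 0.20 (adjusted p = 0.0310, 14 of 15 NT embryos below the IVF mean). In the values as deposited that was -0.18 (adjusted p = 0.487), and in Cy3 alone -0.46 (adjusted p = 0.104). CDC26, an APC/C subunit, was at -1.43 to 0.14 (median -0.61) in NT and -2.09 to -0.51 (-1.27) in IVF embryos, a difference of 0.51 ± 0.17 (adjusted p = 0.0235), which missed the threshold in Cy3 alone (0.50, adjusted p = 0.0646). Against IVF embryos, 4 members were called with the 8 NT embryos labelled 2_ alone, among them CDK14, CDK4 and CDKN1A, and 2 with the 7 labelled 3_ alone, among them CDC26.

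**Figure D4:**
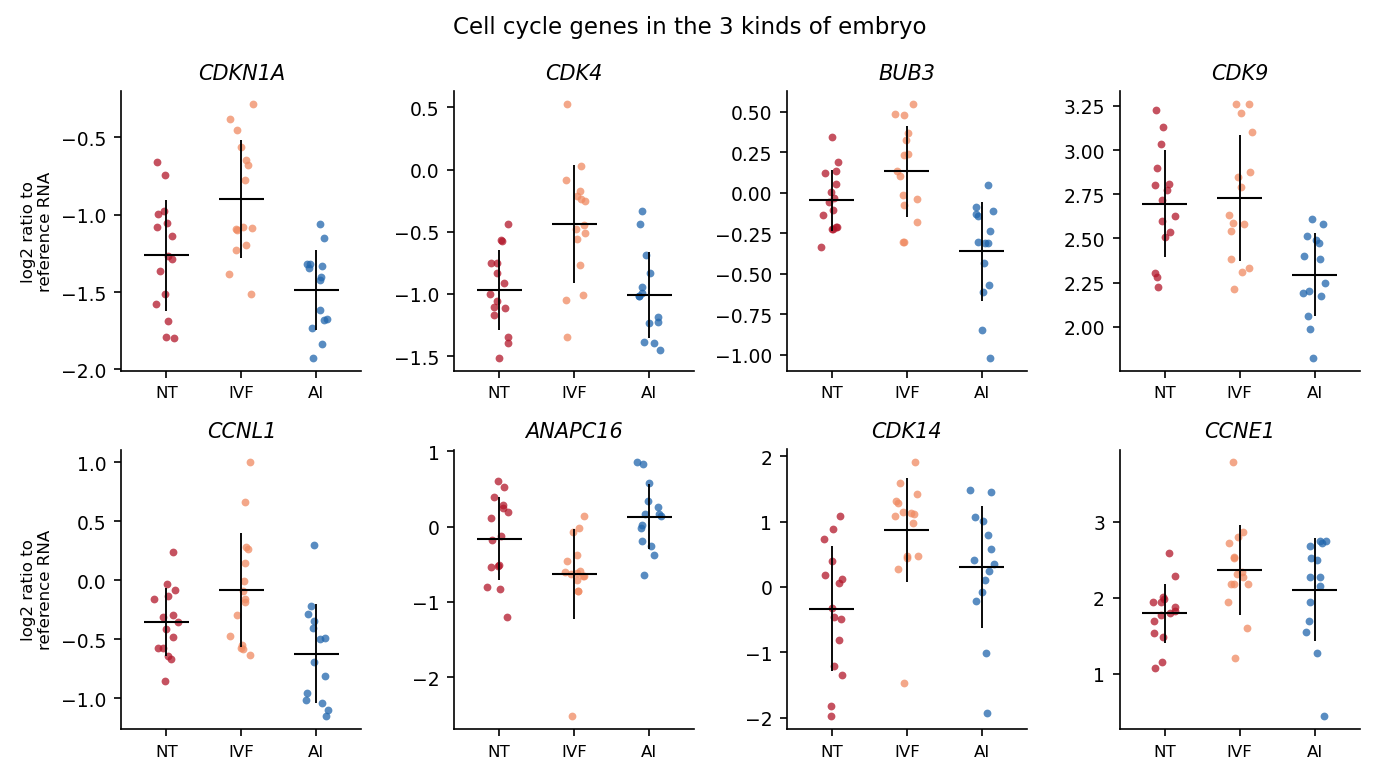
Levels of 8 members (log2 ratio to the reference RNA, vertical axes, 1 scale per gene) in NT, IVF and AI embryos; points are embryos, horizontal bars the means and vertical bars the SD. IVF embryos are highest on average for CDKN1A, CDK4 and CDK14, AI embryos are lowest for BUB3 and CDK9, and every pair of groups overlaps; in the values as deposited the NT minus IVF difference of CDKN1A is 0.02.

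The spread between embryos of 1 kind was about that of other genes. The median SD of the members was 0.42 in NT, 0.41 in IVF and 0.42 in AI embryos, while over all genes it was 0.41, 0.45 and 0.44. CDK3 had the lowest SD of the members in NT (0.18) and AI embryos (0.17) and CDC37, a kinase co-chaperone, in IVF embryos (0.17). CDK14 varied most in NT embryos, with an SD of 0.96.

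A wider list of 114 cell cycle genes outside the symbol rule had 36 genes tested. Against donor cells, NT embryos had 17 of these higher and 5 lower, beside 20.1% and 15.4% of all genes. IVF embryos had 19 higher and 4 lower, beside 18.5% and 15.8%, and AI embryos had 16 and 5, beside 20.4% and 16.6%. The kinetochore gene SPC24 was higher by 3.27, 3.18 and 3.98, the spindle factor TPX2 by 3.10, 3.08 and 2.98, and the condensin subunit NCAPH by 3.33, 3.64 and 2.99. CDCA8, the chromosomal passenger partner of Aurora B, was higher by 2.93, 2.36 and 2.93, beside the 1.64 to 1.70 of AURKB. The genes of the wider list that were lower are named here after their values were seen. DUT, the dUTPase, was lower by differences of -1.36, -1.60 and -1.56 in NT, IVF and AI embryos, and UBE2S, a ubiquitin-conjugating enzyme of the APC/C, by -1.22, -0.96 and -1.22. TOP2B, a DNA topoisomerase, had -1.03, -0.80 and -1.12, and BTG1, an antiproliferative gene, had -0.76, -0.85 and -0.93, all of them called. RPA1, of the single-stranded DNA binding complex, was lower in NT (-1.06) and AI embryos (-0.95), and had a difference of -0.71 in IVF embryos (adjusted p = 0.151). The median of the 36 genes was 0.64, 0.91 and 0.65 in NT, IVF and AI embryos, above that of the 60 members in each.

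Between kinds of embryo, IVF minus AI had 3 of the 36 genes of the wider list higher and 8 lower, beside 13.9% and 15.6% of all genes. TFDP1, the dimer partner of E2F, was lower in IVF than in AI embryos by a difference of -0.92 (adjusted p = 1.14e-07) and lower in NT than in AI embryos by -0.80 (adjusted p = 1.14e-05). SPC24 was lower by -0.80 in IVF minus AI and by -0.70 in NT minus AI embryos. GADD45A, a growth arrest gene induced by p53 as CDKN1A is, was higher in IVF than in AI embryos by 0.76 (adjusted p = 4.41e-05) and lower in NT than in IVF embryos by -1.06 (adjusted p = 1.53e-07). In NT minus IVF embryos 5 of the 36 were higher and 3 lower, beside 13.9% and 10.3% of all genes. In NT minus AI embryos none was higher and 3 were lower, beside 3.80% and 4.27%. Of 13 trophectoderm markers, none was higher and 4 were lower in NT minus AI, and 1 was higher and 5 lower in NT minus IVF, beside the same shares of all genes. In IVF minus AI 1 was higher and 2 lower, no more than the 13.9% and 15.6% of all genes. Of 10 fibroblast markers, 1, 3 and 0 were higher and 0, 1 and 2 lower in NT minus AI, NT minus IVF and IVF minus AI. Of 3 inner cell mass and primitive endoderm markers, 0, 1 and 1 were higher and 0, 1 and 0 lower. The part of the cell types in the differences of the members was not tested.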

How the data were processed

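The authors deposited 1 log2 ratio between the dyes for each spot of 92 arrays, as the values show; the series text names a custom cDNA array, and background correction, normalisation and direction are not given in the sources used here. Per the labels' protocols, embryo RNA had 1 more round of linear amplification than the reference. Intensities were not used, so signal over background is unknown.

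A fill value of 16.61 (2657 cells) was set to missing, arrays were centred on their median (-2.14 to 0.862 as deposited), Cy3-sample arrays turned in sign, duplicate spots averaged and the 2 arrays of a sample averaged. A probe was tested where both donor samples and at least 50% of the NT, IVF and AI embryos had a value (7992 probes). Probes of the same single symbol were averaged. CDKN1C probes carry several symbols and were not used. All 46 samples entered 1 limma 3.58.1 fit (R 4.3.3, eBayes, 2-sided, Benjamini-Hochberg), tested on simulated data. P-values measure only the spread between these samples. Precision is limited by the number of samples, of which only 2 were donor cells. The 2 arrays of a sample do not count as replicates. The members and gene lists were chosen with earlier results of these data known. All members may be named, with full values for those called between kinds of embryo and for the largest differences from donor cells. Alternatives covered scaling, single dyes, filters, probes, samples and label sets. A promoter motif search was planned and not run.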

Additional observations from a re-analysis of the deposited data

How the results depend on the processing

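Without centring, all genes shifted by a median of 0.44 in NT minus AI, 0.38 in NT minus IVF and 0.25, -0.14 and -0.20 in NT, IVF and AI minus donor cells. Members called were then 24 in NT minus AI (24 higher, none lower), 19 in NT minus IVF (19 and none), 7 in IVF minus AI and 17 in IVF minus donor cells. Of all 4398 genes, 1997 (1978 higher), 1755 (1710 higher), 698 and 1034 were called in these. In the main fit these counts were 355, 1066, 1299 and 1508. In NT minus IVF, CDKN1A turned to 0.018 and POLDIP3 to 0.0094. CENPA turned to -0.066 (NT) and -0.019 (IVF) against donor cells in Cy5 alone. The 2 calls of NT minus AI became 5 in Cy5 alone, 0 in Cy3 alone, and 1 with 1 probe per gene, with only the groups compared or with a fit to probes. Over all genes the 355 calls became 550 in Cy5 alone, 216 in Cy3 alone, 360 with 1 probe per gene and 350 with only the groups compared. With a fit to probes, 598 of 7992 probes were called. The 2 member calls became 0 with NT embryos labelled 2_ alone, with those labelled 3_ alone, or without the AI embryos labelled H, which leaves fewer samples. Over all genes, 167, 179 and 368 were called there. The 7 calls of NT minus IVF became 4 and 2 with the NT embryos labelled 2_ and 3_ alone, while those over all genes went from 1066 to 739 and 696. Leaving out a donor cell sample gave 17 to 21 calls in IVF minus donor cells. Labels number some AI and IVF embryos alike (7 numbers), but their deviations did not correlate (r from -0.06 to 0.09). A fit with the replicate block on those embryos gave 3 member calls, beside 460 of 4371 genes. Of all calls, 1 of 12 in IVF minus AI (CDKN1A), none in the other 2 embryo comparisons, and 13, 14 and 13 of 28 against donor cells kept their side of the threshold in every alternative run. The cause of these changes was not tested.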
